A study of Mus musculus with 7 samples.

Results

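The genes described here encode the building blocks of microtubules and the proteins that bind them or move along them. They comprise alpha and beta tubulins, kinesins with 2 kinesin-associated proteins, cytoplasmic dyneins, the microtubule-associated proteins Map1b, Map1s, Map2 and tau, the stathmins, and doublecortin with its relative Dclk1. Members were taken by gene symbol from probe sets annotated with exactly 1 symbol, without the mitotic kinesins Kif11, Kif20a and Kif23, and where a gene had several probe sets, that of the highest mean stood for it. This gave 52 of the 14807 genes named on the array. The names and lists were chosen with earlier results of these data known.

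Islets, the hormone-secreting clusters of the pancreas, were studied in 3 samples from mice whose beta cells lacked the transcription factors FoxO1, FoxO3 and FoxO4, numbered 5 to 7, and in 4 samples from wild-type littermates, numbered 1 to 4. All came from a mixed background of 129, FVBn and C57BL/6. Animals were matched for age and sex, but the sources used here give neither these values nor the Cre driver, nor whether samples were pooled. P-values therefore measure the spread between these samples only. RNA was measured on Affymetrix arrays, and the values are log2 expression after RMA, a procedure that removes background, brings arrays to a common distribution and combines the probes of a set. The deposited values still differed in level between samples, with sample medians from 7.11 to 7.29. Levels of different genes are not comparable on this scale. Differences are knockout minus control.

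Microtubules are hollow polymers of alpha and beta tubulin that grow and shrink from their ends. Kinesins mostly carry cargo towards the plus end and cytoplasmic dynein 1 towards the minus end, while associated proteins such as tau, Map2 and doublecortin stabilise the polymer and stathmins sequester tubulin. In beta cells the network is dense and arises largely away from the centrosome, and insulin granules move along it.

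Pan-endocrine markers, 5 of 5 with a probe set, had means between 12.46 and 12.49 in knockout and between 12.41 and 12.52 in control samples. The means of acinar markers, 6 of 10 measured, lay between 9.43 and 10.12 in knockout and between 8.73 and 10.18 in control samples, those of 6 endothelial markers between 8.65 and 8.84 and between 8.76 and 9.17, and those of 6 stellate and fibroblast markers between 7.61 and 7.89 and between 7.36 and 8.04. RMA gives a value to every probe set, so these means neither establish the islet label nor show any cell type to be absent. The targeted genes did not pass the test, with differences of -0.47 (SE 0.16) for Foxo4, -0.16 (SE 0.11) for Foxo3 and -0.26 (SE 0.17) for Foxo1, the last being -0.50 (SE 0.15) without controls 3 and 4. For Foxo4 and Foxo3 every knockout sample lay below every control, as for 1.94% of all genes, while Foxo1 overlapped. Foxo4 had an unadjusted p of 0.016 (limma). Controls 3 and 4 stood apart, with scores of 43.2 and 30.3 on the leading principal component and scores of -29.0 to -3.40 elsewhere. In control 3 the upper quartile over all probe sets was also the lowest, 8.63, against 8.81 in control 4 and 8.88 to 8.95 elsewhere. Without these samples, an alternative chosen after seeing the data, the difference moved by over 1.5 times or turned sign for 39 of the 52 members, 75% against 73.7% of all genes. Where a gene named here moved so, both values are given. In islets measured in bulk, fewer cells of a type and less RNA per cell cannot be told apart.

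No microtubule gene passed limma's moderated test over all 14807 genes. The smallest adjusted p among the 52 was 0.362, and 0.00675% of all genes passed. At an unadjusted p under 0.05 there were 6 members higher in knockout islets, 11.5% of the 52 where 11.6% of all genes were higher. On the lower side there were 2 members, 3.85% of the 52 against 2.14% of all genes. Shares on either side were thus close to the background, and the counts depended on single samples. With single samples left out, the higher count was 2 for knockout 5, 3 for knockout 6, 13 for control 1 and 3 for control 4. The lower count was 0 for knockout 5, 0 for knockout 6, 5 for knockout 7, 1 for control 2, 0 for control 3 and 1 for control 4. Counts over all genes moved as well. In either direction 2028 genes were at that p with all samples. They numbered 569 without knockout 5, 852 without knockout 6 and 2615 without knockout 7. Leaving out controls 1 to 4 in turn gave 3122, 2588, 1212 and 1024. Without controls 3 and 4 there were 2 higher and 1 lower, against 3.51% and 1.22% of all genes.

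Differences of the 52 genes ran from -0.40 to 0.97 with a median of 0.04, against 0.08 over all genes. Of the members 29 had positive and 23 negative differences, so that 55.8% were positive where 68.4% of all genes were. The balance was 29 to 23 after quantile normalization as well and 26 to 26 with each sample centred on its median. Without control 3 the median of members was -0.03, against 0.07 over all genes. Without controls 3 and 4 it was -0.05, against 0.03 over all genes. Then 20 members were positive and 32 negative, 38.5% positive against 58.5% of all genes. The direction of the family as a whole was therefore not settled. Groups did not overlap for 6 members that lay above the controls, Dcx, Tubb2b, Kifap3, Tuba4a, Kif26b and Kif3a, 11.5% of members against 8.99% of all genes. For Map2 and Dync1h1 every knockout sample lay below every control, 3.85% of members against 1.94% of all genes.

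**Figure D1:**
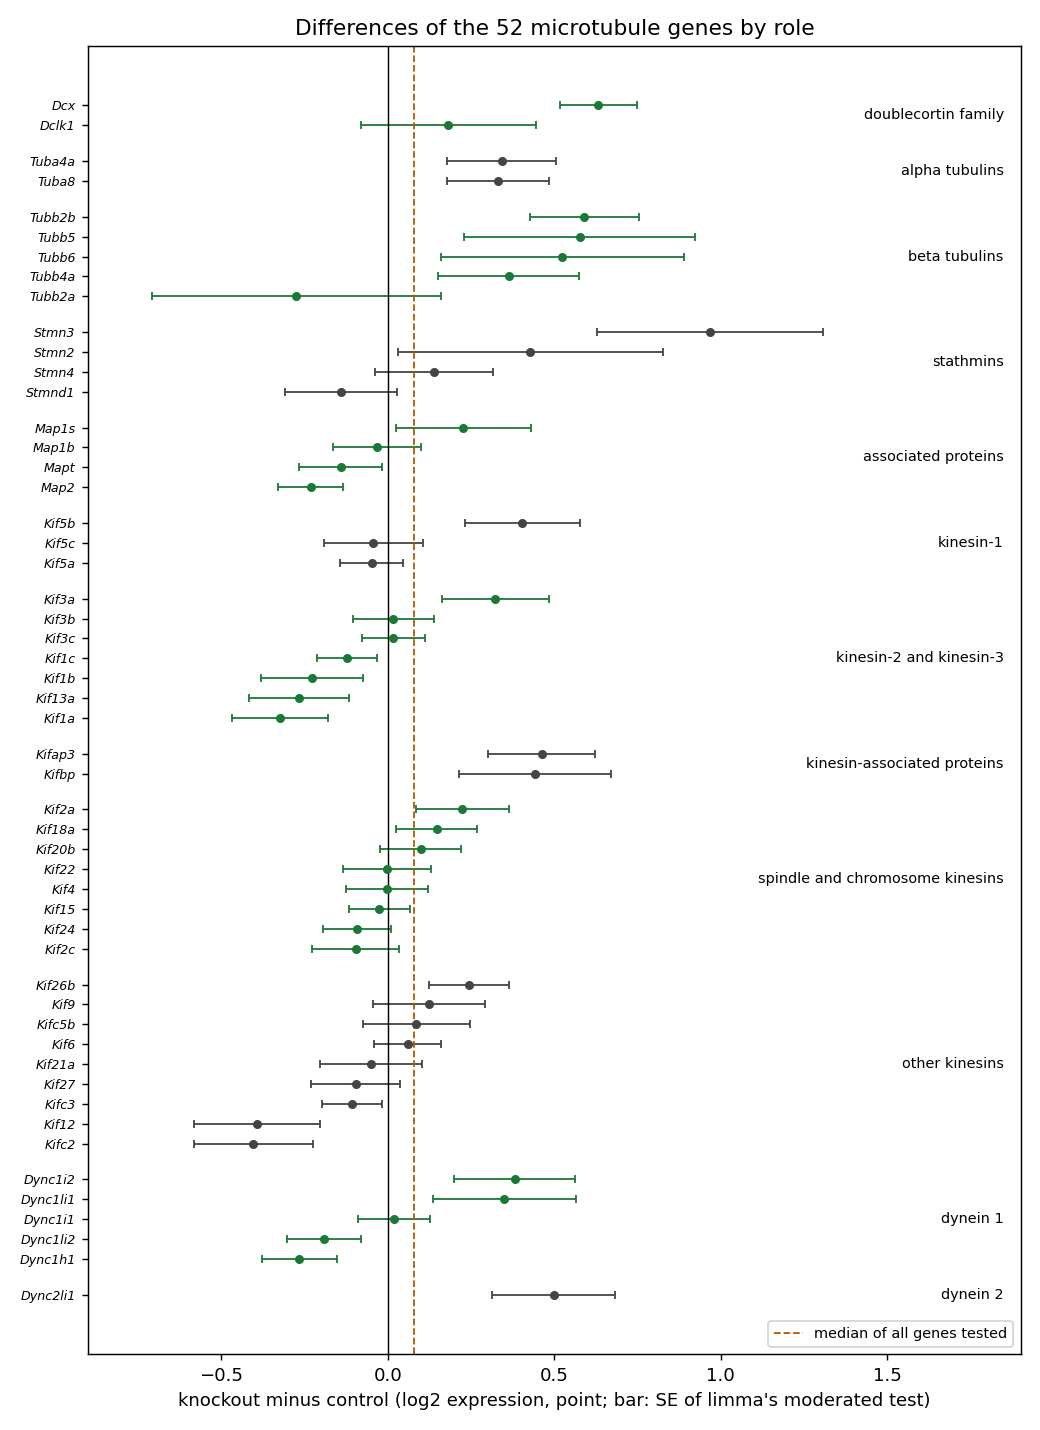
Differences between knockout and control islets for the 52 microtubule genes, grouped by role; points are differences in log2 expression (horizontal axis), bars the standard error of limma's moderated test, and the dashed line the median of all genes, 0.08. Dcx, at 0.63, has a short bar far from 0, and the stathmin Stmn3 has the largest difference, 0.97, with a wide one.

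Doublecortin, Dcx, binds and stabilises microtubules in migrating neurons and lies on the X chromosome in mice. Its values were 10.07, 10.12 and 10.22 in knockout islets 5, 6 and 7, against 9.62, 9.46, 9.29 and 9.65 in controls 1 to 4. The lowest knockout sample lay above the highest control, and the knockout samples were closer to each other than the controls were. Knockout islets averaged 10.14 ± 0.08 (SD, n = 3) and controls averaged 9.50 ± 0.17 (SD, n = 4). The difference was 0.63 (SE 0.12), with a 95% interval of 0.37 to 0.90 and a fold of 1.55 (limma, adjusted p = 0.362). By unadjusted p Dcx ranked 9 among the 14807 genes, yet it missed the threshold. Without controls 3 and 4 the difference was 0.60 (SE 0.12), and over all 16 alternatives it ran from 0.47 to 0.68. The adjusted p ran from 0.173 to 0.951 over the same alternatives.

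The relatives of Dcx gave other values. Dclk1, a kinase with doublecortin domains, was at 7.92, 8.32 and 7.95 in knockouts 5 to 7, against 8.01, 8.36, 7.16 and 7.995 in controls 1 to 4. Control 3 alone was low, and the other samples of both groups overlapped. The difference of 0.18 (SE 0.26) turned to -0.06 without control 3 and to -0.12 without controls 3 and 4. Dclk2 and Dclk3, which share these domains but are not members, differed by -0.26 (SE 0.12) and 0.16 (SE 0.22), and neither passed limma's test. For Dclk3 the difference was -0.03 without knockout 6 and -0.02 without controls 3 and 4.

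**Figure D2:**
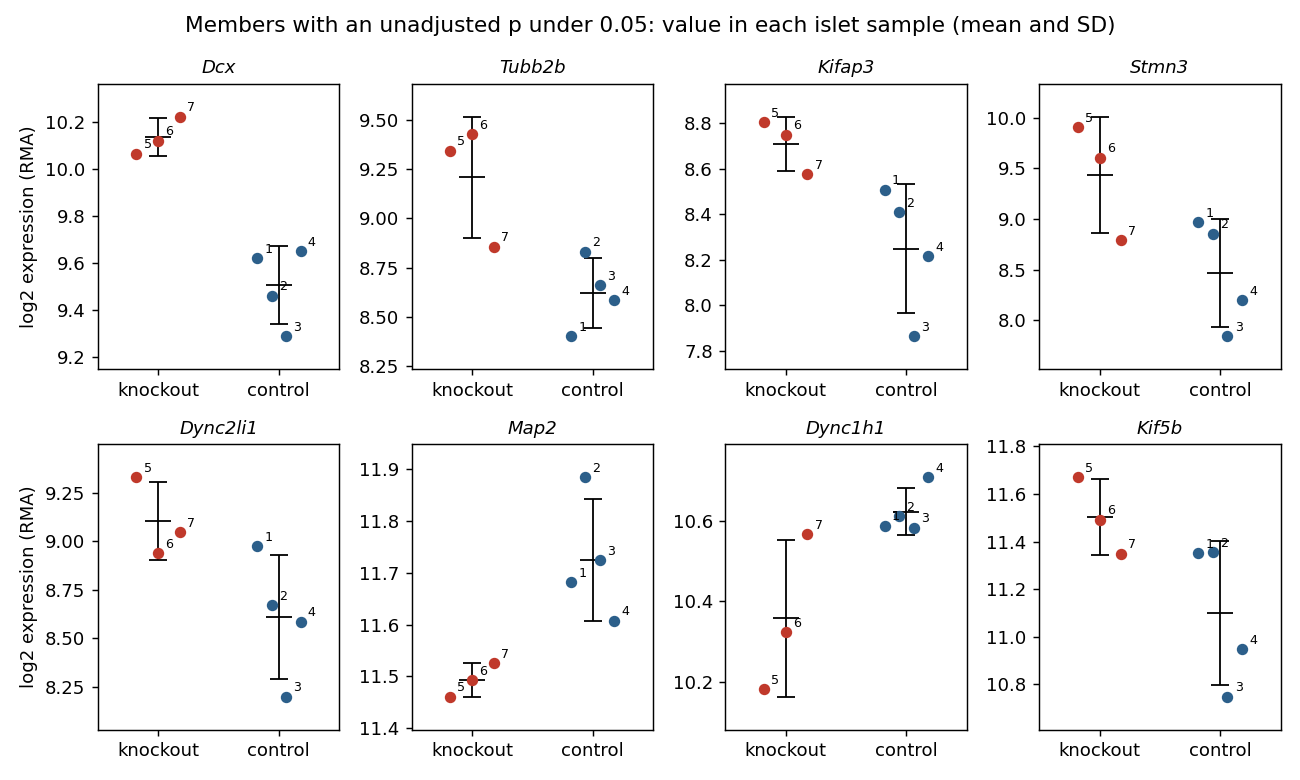
Log2 expression (vertical axis, a scale of its own in each panel) of the 8 members with an unadjusted p under 0.05, 1 point per islet sample with its number, black bars for mean and SD. Knockout samples stand above all controls for Dcx, Tubb2b and Kifap3 and below all of them for Map2 and Dync1h1, while Stmn3, Dync2li1 and Kif5b overlap.

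Since FoxO proteins bind DNA, upstream sequences were read for members from the RefSeq promoter table of GRCm38.p6, which held entries for 41 of the 52 genes with 48 start sites. The motif GTAAACA, a FoxO core, was searched on both strands in the 250 bases before each start. It occurred in 0 of the 48, against 3.17% of all 32851 windows of that length, which says only that these letters are not in these windows. A TATA box, TATAAA, was in 20.8% of the members' windows and 12.4% of all, a GC box, GGGCGG, in 45.8% and 32.7%, and CCAAT in 35.4% and 33.9%. None of the 4 motifs contains another. GC content had a median of 58.6% in members and 52.4% in all windows. Of the 8 members with an unadjusted p under 0.05, windows of 5 follow, to show what precedes the starts of the genes that the results turn on. Tubb2b, Dync2li1 and Kif5b are named only. Dcx and Kifap3 lay above all controls, Map2 and Dync1h1 below all of them, and Stmn3 overlapped them. The windows run 5′ to 3′ on the gene's strand, with any match to these motifs on either strand in capitals. Dcx is on the minus strand at chrX:143933220-143933469, Kifap3 on the plus strand at chr1:163779333-163779582, Stmn3 on the minus strand at chr2:181314501-181314750, Map2 on the plus strand at chr1:66175079-66175328 and Dync1h1 on the plus strand at chr12:110601145-110601394.
Dcx: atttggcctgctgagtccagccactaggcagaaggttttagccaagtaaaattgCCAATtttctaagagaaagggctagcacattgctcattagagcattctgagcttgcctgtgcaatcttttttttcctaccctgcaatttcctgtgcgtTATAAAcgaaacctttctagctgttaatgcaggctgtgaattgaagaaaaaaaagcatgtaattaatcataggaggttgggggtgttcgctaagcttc
Kifap3: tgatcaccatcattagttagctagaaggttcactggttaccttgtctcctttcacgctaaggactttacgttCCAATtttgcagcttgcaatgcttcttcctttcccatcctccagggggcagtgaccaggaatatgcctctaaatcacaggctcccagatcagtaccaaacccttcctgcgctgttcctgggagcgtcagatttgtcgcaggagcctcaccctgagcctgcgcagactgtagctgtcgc
Stmn3: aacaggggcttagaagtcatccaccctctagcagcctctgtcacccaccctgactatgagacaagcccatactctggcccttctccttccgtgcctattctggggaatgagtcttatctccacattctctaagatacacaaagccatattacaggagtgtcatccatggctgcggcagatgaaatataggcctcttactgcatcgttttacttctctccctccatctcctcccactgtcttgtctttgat
Map2: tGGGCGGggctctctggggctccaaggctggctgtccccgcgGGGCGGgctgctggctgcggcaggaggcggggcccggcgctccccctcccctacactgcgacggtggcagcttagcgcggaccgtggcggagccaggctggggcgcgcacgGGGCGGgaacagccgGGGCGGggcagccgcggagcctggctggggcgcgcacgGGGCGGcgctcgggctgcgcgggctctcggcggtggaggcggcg
Dync1h1: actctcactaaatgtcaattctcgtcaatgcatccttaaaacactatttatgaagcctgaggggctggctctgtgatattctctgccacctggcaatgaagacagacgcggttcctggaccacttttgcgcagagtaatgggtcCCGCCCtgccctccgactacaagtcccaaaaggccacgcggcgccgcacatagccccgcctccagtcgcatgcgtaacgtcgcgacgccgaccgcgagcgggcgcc
The Dcx window, the first of 2 starts in the table, was 41.6% GC, with a TATAAA beginning 98 bases before the start and 1 CCAAT. The Map2 window was 81.2% GC and held 5 GC boxes. Kifap3 had 1 CCAAT in a window of 51.6% GC, Dync1h1 had 1 GC box at 58.0%, and Stmn3 held 0 of the motifs at 48.8%. These are descriptions of 5 windows.

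Among the tubulins, 6 of 7 measured genes had positive differences, a share of 85.7% where 68.4% of all genes were positive, with a median of 0.36, and none passed the test. Leaving out controls 3 and 4 gave 4 positive and 3 negative, 57.1% positive against 58.5% of all genes. The median was then 0.02, and the beta tubulins alone had a median of -0.03. Tubb2b, a beta tubulin of developing neurons, was at 9.34, 9.43 and 8.86 in knockouts 5 to 7, against 8.40, 8.83, 8.66 and 8.58 in controls 1 to 4. Knockouts 5 and 6 were clearly the highest, and knockout 7 lay just above control 2. The difference was 0.59 (SE 0.16, limma, adjusted p = 0.362), and it was 0.59 (SE 0.21) without controls 3 and 4. Its close paralog Tubb2a differed by -0.28 (SE 0.43) with the widest spread of the family among knockouts, 6.05, 6.87 and 8.09 in samples 5 to 7. Controls 1 to 4 had 7.23, 6.91, 7.14 and 7.83, and the difference was 0.20 without knockout 5 and -0.07 without controls 3 and 4. These paralogs are nearly identical in coding sequence, and how far the probes keep them apart was not tested.

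The other beta tubulins had their lowest values in controls 3 and 4. Tubb5, the widely expressed beta tubulin, was at 10.10, 10.08 and 10.02 in knockouts 5 to 7, against 10.32, 9.88, 8.85 and 8.91 in controls 1 to 4. Tubb6, another beta tubulin, was at 10.14, 10.19 and 9.56 in knockouts and at 10.11, 9.92, 8.58 and 9.14 in controls. Controls 1 and 2 lay on either side of the knockouts for Tubb5 and among them for Tubb6, and controls 3 and 4 lay below all of them. Their differences were 0.58 (SE 0.35) and 0.52 (SE 0.36) over all samples, and -0.03 and -0.06 without controls 3 and 4. Tubb4a differed by 0.36 (SE 0.21) and by 0.02 without those samples.

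Both measured alpha tubulins had positive differences. Tuba8 was at 7.40, 7.42 and 7.17 in knockouts 5 to 7, against 7.12, 7.30, 6.80 and 6.76 in controls 1 to 4, with overlap through control 2. The difference was 0.33 (SE 0.15, limma, adjusted p = 0.375), and 0.12 (SE 0.13) without controls 3 and 4. Tuba4a averaged 10.35 ± 0.05 in knockouts (SD, n = 3) and 10.003 ± 0.31 in controls (SD, n = 4), which differed by 0.34 (SE 0.16), or 0.15 (SE 0.11) without controls 3 and 4. Some genes, such as Tuba1a, Tuba1c, Tubb3 and Tubb4b, share probe sets with other symbols and were left out by the rule. The brightest of those shared sets, of Tuba1a, Tuba1c and Gm5620, was at 12.65, 12.83 and 12.69 in knockouts, against 12.86, 12.64, 12.42 and 12.43 in controls 1 to 4, so the groups overlapped.

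Stathmins, which hold free tubulin dimers, had positive differences for 3 of 4 genes. Stmn3, a neuronal stathmin, was at 9.91, 9.60 and 8.79 in knockouts 5 to 7, against 8.97, 8.85, 7.84 and 8.20 in controls 1 to 4. Knockout 7 lay below controls 1 and 2, and controls 3 and 4 were the lowest. The difference, 0.97 (SE 0.34), was a fold of 1.96 (limma, adjusted p = 0.362), and it was 0.52 (SE 0.30) without controls 3 and 4. Stmn2, whose protein is abundant in growing axons, was at 7.81, 6.57 and 5.83 in knockouts 5 to 7, so that knockout samples took in the highest and the lowest value of all 7. Its difference of 0.43 (SE 0.40) was -0.11 without knockout 5. Stmn4 differed by 0.14 (SE 0.18), or 0.03 without controls 3 and 4. Stmnd1, which has a stathmin domain, differed by -0.14 (SE 0.17), or -0.07 without those controls, and the sign turned without knockout 7 (0.02) and with array weights (0.03).

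Dcx, Tubb2b, Stmn2, Stmn3, Map2, Kif5a, Kif5c and Kifc2 are also known as neuronal genes, so neuronal markers were read beside them. Over all samples these members went both ways. Differences were positive for Dcx (0.63), Tubb2b (0.59), Stmn2 (0.43) and Stmn3 (0.97). They were negative for Map2 (-0.23), Kif5a (-0.05), Kif5c (-0.04) and Kifc2 (-0.40). These names are not a complete list, and the balance of signs depends on which genes are named. Differences of members outside it were negative for Mapt (-0.14), Map1b (-0.03), Kif1a (-0.32) and Tubb2a (-0.28). They were positive for Tubb4a (0.36) and Stmn4 (0.14). Of 11 neuronal markers listed, 9 were measured. Differences were positive for 6 and negative for 3, where 68.4% of all genes were positive. The median difference was 0.12, against 0.08 over all genes. The negative ones were Th (-0.18), Elavl4 (-0.05) and Prph (-0.01), which were at -0.42, 0.14 and 0.09 without controls 3 and 4. The mean of the list lay between 7.73 and 8.14 in knockout and between 7.78 and 7.94 in control samples, with knockout 7 the lowest and knockout 5 the highest. At an unadjusted p under 0.05 there were 2 higher and 0 lower markers, where 11.6% and 2.14% of all genes were. Snap25, which beta cells also express, differed by 0.38 (SE 0.14), or 0.18 without controls 3 and 4. Nefm, a neurofilament, differed by 0.35 (SE 0.13). Without controls 3 and 4 there were 0 higher and 1 lower, which was Th, against 3.51% and 1.22% of all genes. The part of these markers in the differences of the members was not tested.

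Of 4 microtubule-associated proteins measured, 1 had a positive difference. Map2, which stabilises dendritic microtubules, was at 11.46, 11.49 and 11.53 in knockouts 5 to 7, against 11.68, 11.88, 11.72 and 11.61 in controls 1 to 4. All knockout samples lay below all controls, by a small margin. The difference was -0.23 (SE 0.10, limma, adjusted p = 0.364), a fold of 0.852, and -0.29 (SE 0.11) without controls 3 and 4. Mapt, which encodes tau, was at 7.30, 7.39 and 7.66 in knockouts, against 7.60, 7.41, 7.62 and 7.73 in controls, a difference of -0.14 (SE 0.12) with overlap, or -0.06 without controls 3 and 4. Map1b was at 11.50, 11.67 and 11.67 in knockouts, against 11.69, 11.88, 11.37 and 11.67 in controls. Its difference of -0.03 (SE 0.13) had a 95% interval of -0.33 to 0.27 and turned sign without control 2 (0.04) or knockout 5 (0.02), while without controls 3 and 4 it was -0.17. Map1s differed by 0.23 (SE 0.20), and by -0.04 without controls 3 and 4.

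The 27 kinesins had a median difference of -0.03, with 11 positive and 16 negative, so that 40.7% were positive where 68.4% of all genes were. The balance was 7 to 20 without controls 3 and 4, with a median of -0.08, and 25.9% were positive against 58.5% of all genes. At an unadjusted p under 0.05 there was 1 kinesin, 3.7% of them against 13.7% of all genes. That one was Kif5b, the ubiquitous heavy chain of kinesin-1, which moves insulin granules in beta cells. It was at 11.67, 11.49 and 11.35 in knockouts 5 to 7, against 11.35, 11.35, 10.75 and 10.95 in controls 1 to 4. Controls 1 and 2 met knockout 7, and controls 3 and 4 lay lower. The difference was 0.40 (SE 0.17, limma, adjusted p = 0.364), and 0.15 (SE 0.13) without controls 3 and 4. The neuronal kinesin-1 chains Kif5a and Kif5c differed by -0.05 (SE 0.09) and -0.04 (SE 0.15), the value for Kif5c being 0.05 without control 2 and -0.20 without controls 3 and 4.

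In the kinesin-3 family, which carries dense-core vesicles and other organelles, all 4 measured genes had negative differences. Kif1a was at 10.19, 10.33 and 10.68 in knockouts 5 to 7, against 10.61, 10.64, 10.68 and 10.96 in controls 1 to 4. Knockouts 5 and 6 were below every control, and knockout 7 was within the controls. The difference was -0.32 (SE 0.14, limma, adjusted p = 0.368), and -0.23 (SE 0.16) without controls 3 and 4. Kif13a differed by -0.27 (SE 0.15), or -0.13 without those controls, Kif1b by -0.23 (SE 0.15), or -0.15 without them, and Kif1c by -0.12 (SE 0.09), and none of them passed.

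Kinesin-2 drives transport into cilia and is made of Kif3 motors and the accessory subunit Kifap3. Kifap3 was at 8.81, 8.75 and 8.58 in knockouts 5 to 7, against 8.51, 8.41, 7.86 and 8.22 in controls 1 to 4. Knockout 7 lay only slightly above control 1, and control 3 was the lowest. The difference was 0.46 (SE 0.16, limma, adjusted p = 0.362), and 0.25 (SE 0.12) without controls 3 and 4. Among the motors Kif3a differed by 0.32 (SE 0.16) without overlap, or 0.18 (SE 0.11) without controls 3 and 4. Kif3b and Kif3c each differed by 0.02 (SE 0.12 and 0.09), values whose sign turned after quantile normalization and centring and which were -0.09 and -0.06 without those controls. Kifbp, a protein that holds kinesins off microtubules, differed by 0.44 (SE 0.23), or 0.07 (SE 0.14) without controls 3 and 4.

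Dynein 2, which returns cargo from the ciliary tip, was represented by its light intermediate chain Dync2li1. It was at 9.33, 8.94 and 9.05 in knockouts 5 to 7, against 8.97, 8.67, 8.20 and 8.59 in controls 1 to 4. Control 1 exceeded knockout 6, so the groups overlapped. The difference was 0.50 (SE 0.18, limma, adjusted p = 0.362), and 0.28 (SE 0.16) without controls 3 and 4.

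Of the subunits of dynein 1, the main minus-end motor, 3 had positive and 2 negative differences, or 2 and 3 without controls 3 and 4. Dync1h1, the heavy chain that holds the motor, was at 10.18, 10.32 and 10.57 in knockouts 5 to 7, against 10.59, 10.61, 10.58 and 10.71 in controls 1 to 4. Knockout 7 was just below control 3, and knockouts 5 and 6 were well below. The difference was -0.27 (SE 0.11, limma, adjusted p = 0.364), a fold of 0.832, and -0.24 (SE 0.14) without controls 3 and 4. Dync1i2, an intermediate chain that links cargo adaptors, was at 10.17, 9.99 and 9.91 in knockouts, against 9.93, 9.86, 9.20 and 9.59 in controls. Its difference was 0.38 (SE 0.18, limma, adjusted p = 0.376), and 0.13 (SE 0.12) without controls 3 and 4. The light intermediate chain Dync1li1 differed by 0.35 (SE 0.22), but by 0.01 (SE 0.12) without controls 3 and 4. Its paralog Dync1li2 differed by -0.19 (SE 0.11). The intermediate chain Dync1i1 differed by 0.02 (SE 0.11), which was -0.004 after centring and -0.02 without controls 3 and 4. Whether the subunits differ from each other in response was not tested.

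Spindle and chromosome kinesins, the set used by dividing cells, had 3 positive and 5 negative differences among 8 genes. That is 37.5% positive, against 68.4% of all genes. None was at an unadjusted p under 0.05, where 13.7% of all genes were. Kif2a, which also depolymerises microtubules in resting cells, differed by 0.22 (SE 0.14), or 0.06 without controls 3 and 4. Its relatives Kif2c and Kif24 differed by -0.10 (SE 0.13) and -0.09 (SE 0.10). Kif2c was at 0.01 without control 1 and at -0.21 without controls 3 and 4. In 5 of the 8 genes control 1 had the highest value, and knockout 5 had it in the other 3. Over all genes control 1 held it for 9.5% and knockout 5 for 26.8%. Apart from Kif2a, group means of these genes lay between 4.29 and 5.91, where the median gene mean was 7.61. Whether they lay above background is not known. Markers of dividing cells, 6 of 7 measured, had their highest mean in control 1 as well, 6.56, and the next highest in knockout 5, 6.23. Over the groups the mean of these markers lay between 5.86 and 6.23 in knockout and between 5.67 and 6.56 in control samples. The part of dividing cells in these values was not tested.

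Of the remaining 9 kinesins 4 had positive and 5 negative differences. Kifc2, a minus-end directed kinesin of neurons, was at 7.40, 7.41 and 7.73 in knockouts 5 to 7, against 7.68, 7.63, 8.10 and 8.27 in controls 1 to 4. Controls 3 and 4 were the highest, and knockout 7 lay within controls 1 to 4. The difference was -0.40 (SE 0.18, limma, adjusted p = 0.368), and -0.14 (SE 0.14) without controls 3 and 4. Kif12 differed by -0.39 (SE 0.19), or -0.11 (SE 0.15) without controls 3 and 4. Kif26b, an atypical kinesin, differed by 0.24 (SE 0.12) with no overlap. Kif21a, which slows microtubule growth, differed by -0.05 (SE 0.15), by 0.005 without control 2 and by -0.19 without controls 3 and 4.

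**Figure D3:**
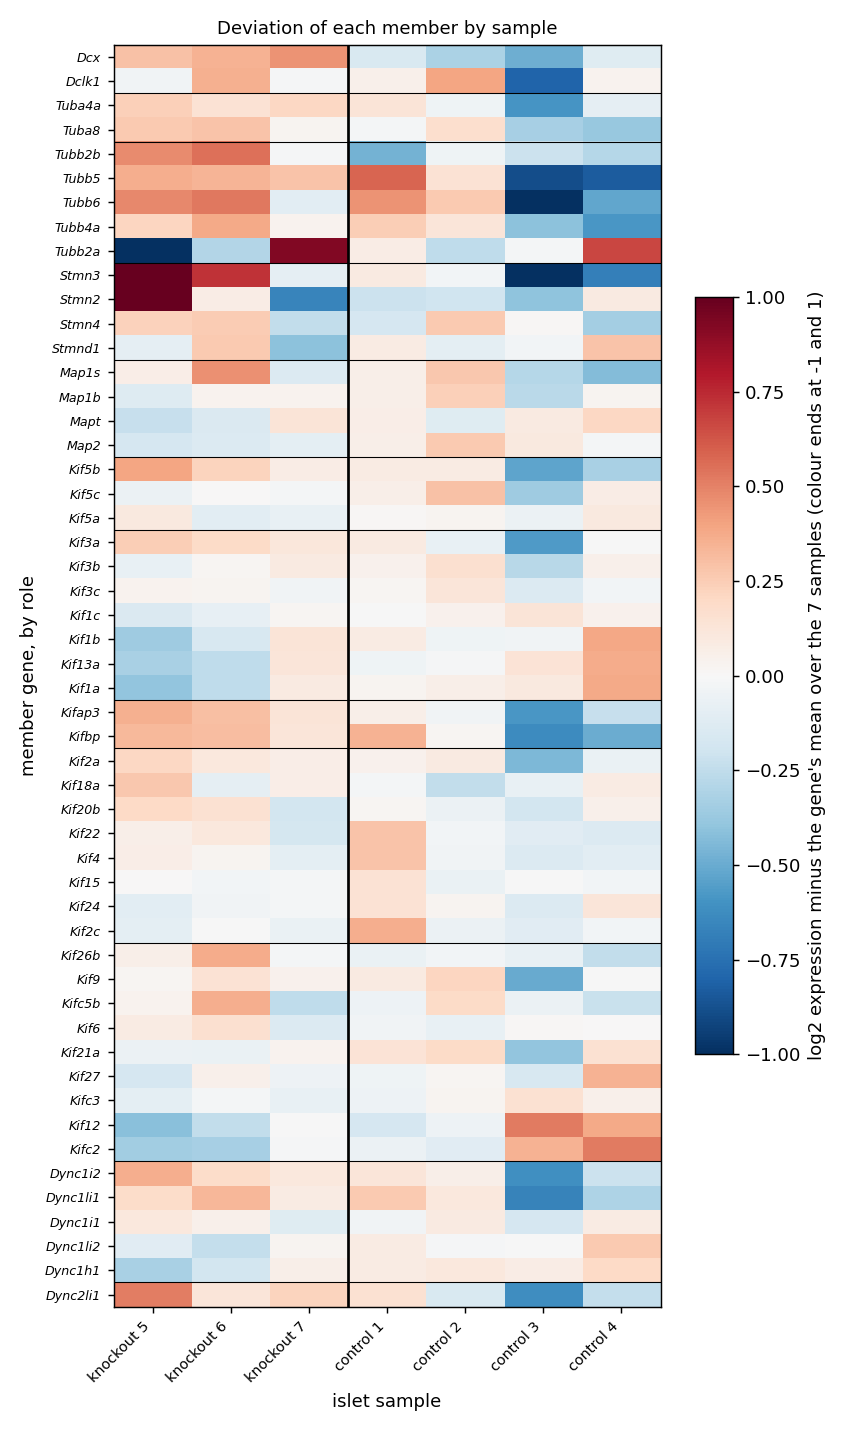
Each row is a member, grouped by role, and each column an islet sample, knockouts left of the line and controls right of it; colour gives log2 expression minus the gene's mean over the 7 samples. Control 3 is blue in many rows, Tubb5, Tubb6, Stmn3, Kifbp and Dync1li1 among them, while Dcx is red in all 3 knockouts and blue in all 4 controls.

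The lowest value of a member lay most often in control 3 and next most often in knockout 5. Knockout 5 held it for 12 of the 52 members, 23.1% against 11.7% of all genes, control 3 for 25 members, 48.1% against 37.1%, and control 4 for 5 members, 9.62% against 20.4%. Controls 3 and 4 together held it for 57.7% of members and 57.5% of all genes. Control 2 held the highest value for 9 members, 17.3% against 8.96% of all genes. The highest value lay in control 3 or 4 for 13 members, 25% against 21.9% of all genes. These shares describe 7 samples and were not tested.

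**Figure D4:**
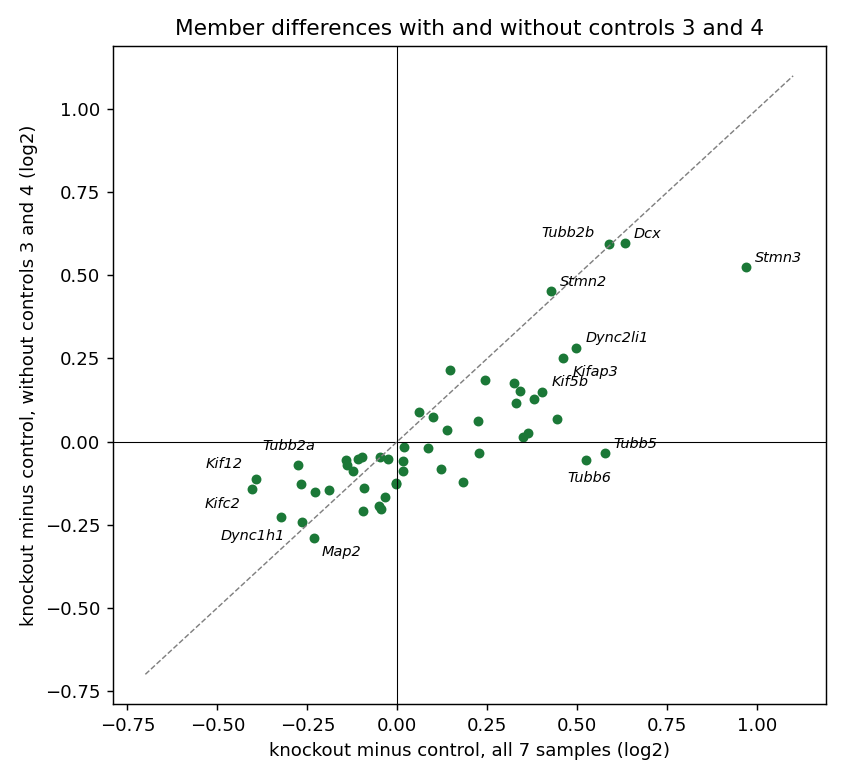
Differences of the 52 members in log2 expression with all 7 samples (horizontal axis) and without controls 3 and 4 (vertical axis), 1 point per gene; the dashed line marks equal values. Dcx and Tubb2b lie near the line at about the same value on both axes, whereas Tubb5 and Tubb6 lie at 0.58 and 0.52 with all samples and just below 0 without controls 3 and 4.

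Other genes of the microtubule system were read from 9 lists, in which 91 of 120 genes were measured. None passed the test over all genes, with a smallest adjusted p of 0.362. At an unadjusted p under 0.05 there were 11 higher and 8 lower genes. Those are 12.1% and 8.79% of the 91, against 11.6% and 2.14% of all genes. The counts were 2 and 4 without controls 3 and 4, 2.2% and 4.4% of the 91, against 3.51% and 1.22% of all genes. The total of 19 dropped to 6 when knockout 5 was left out, 7 for knockout 6, 9 for control 3 and 7 for control 4. Over all genes the total of 2028 dropped as well, to 569, 852, 1212 and 1024 in the same order. The median difference was 0.10, with 58 positive and 33 negative, 63.7% positive against 68.4% of all genes. It was 0.006 without controls 3 and 4, with 46 positive and 45 negative, 50.5% positive against 58.5%.

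By role, dynactin, the partner of dynein 1, had positive differences for 6 of 7 genes, 85.7%, and a median of 0.28, which was 0.09 without controls 3 and 4. Tubulin folding, the chaperonin and cofactors that make dimers, had them for 11 of 12 genes, 91.7%, with a median of 0.20, or 0.13 without those controls. Nucleation, around the gamma tubulin ring, had them for 10 of 12, 83.3%, with a median of 0.22, or 0.03 without them. Kinesin light chains and adaptors had 3 positive and 6 negative differences, and of those at an unadjusted p under 0.05 there was 1 higher and 4 lower, 11.1% and 44.4% of the 9 against 11.6% and 2.14% of all genes. Without controls 3 and 4 there were 0 higher and 1 lower, against 3.51% and 1.22%. Other associated proteins had 4 positive and 10 negative, with a median of -0.11. The tubulin modification list had 11 of 16 positive and a median of 0.09, dynein adaptors 5 of 7 and 0.07, severing enzymes 4 of 6 and 0.05, and end-binding proteins 4 of 8 and 0.04. These 4 medians were 0.02, 0.01, -0.02 and -0.13, in the same order, without controls 3 and 4.

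Mapk8ip3, an adaptor that links kinesin-1 to cargo, had the smallest p of these lists. It was at 8.90, 9.21 and 9.48 in knockouts 5 to 7, against 9.50, 9.99, 9.91 and 9.99 in controls 1 to 4. Each knockout sample lay below each control, though knockout 7 only just below control 1. The difference was -0.65 (SE 0.17, limma, adjusted p = 0.362), and -0.55 (SE 0.21) without controls 3 and 4. Mapre1, the plus-end tracker EB1, was at 10.33, 10.21 and 10.18 in knockouts, against 10.07, 9.80, 9.84 and 9.68 in controls, a difference of 0.39 (SE 0.11) without overlap. Hdac6, a tubulin deacetylase, was at 9.67, 10.03 and 9.94 in knockouts, against 10.11, 10.31, 10.47 and 10.54 in controls, a difference of -0.47 (SE 0.14) without overlap. Neither gene passed limma's test over all genes. Among the 91 genes the groups did not overlap for 9 that lay above the controls and 6 that lay below. Of all genes these were 8.99% and 1.94%. Clip4, a protein with the domain of plus-end linkers, differed by -0.57 (SE 0.18), Eml5, of the EMAP family, by -0.94 (SE 0.29), and Agbl3, a carboxypeptidase that trims tubulin tails, by 0.78 (SE 0.24). Without controls 3 and 4 these were -0.48 (SE 0.20), -0.59 (SE 0.26) and 0.46 (SE 0.21).

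**Figure D5:**
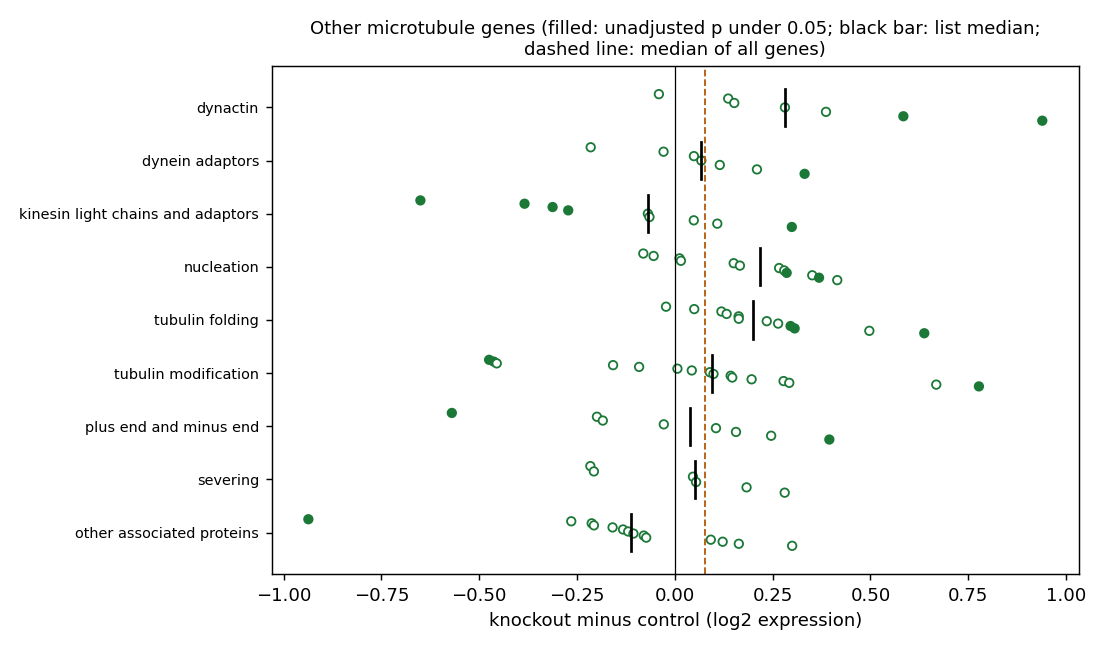
Differences in log2 expression (horizontal axis) of the 91 other microtubule genes in 9 lists, 1 point per gene, filled at an unadjusted p under 0.05; black bars are list medians and the dashed line is the median of all genes, 0.08. Dynactin has the highest median, 0.28, and kinesin light chains and adaptors hold 4 filled points below 0. Without controls 3 and 4 the dynactin median was 0.09 and 1 gene of the adaptor list was lower at that p.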

How the data were processed

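Affymetrix arrays measured 7 islet samples. Per the submitters' processing notes, RMA in Affymetrix Expression Console gave the log2 expression values that the authors deposited for each probe set. The sources used here name no version, settings or genome build. The values ran from 2.50 to 14.3, from which the log2 scale was inferred. RMA gives no detection call, and precision is limited by how many arrays there are.

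The platform annotation gave 1 symbol to 14939 of 23238 probe sets, several to 989 and none to 7310; 52 of 52 members matched RefSeq by Entrez ID. Kif1c was the 1 member with several probe sets. The comparison, knockout minus control, used limma 3.58.1 in R 4.3.3 (empirical Bayes, two-sided, no covariates, no filter). Benjamini-Hochberg adjustment was over 14807 genes, with a threshold of 0.05. The method was also run on simulated data. The outcome of that run is not given here, and no conclusion about these samples is drawn from it. Groups and numbers came from the titles. The knockout titles hold an unexplained mark, which was left uninterpreted.

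Named genes were Dcx, Dclk1, Kif5b, Dync1h1, Mapt, Map2, Map1b, the 12 members with the smallest p, for each role the 2 with the highest mean and the extremes of difference, and the 6 other microtubule genes with the smallest p. Further genes were added in the text to complete a role and were chosen after their values were seen. Members and lists were chosen with earlier results of these data known. Alternatives are those of the closing section.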

Additional observations from a re-analysis of the deposited data

Results flagged for a closer look

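Of the 52 members, 1 had a control sample far from the other 3 by Dixon's test, which chance flags in about 5% of groups. Kif21a was at 9.82 in control 3, against 10.36 to 10.41 in the other controls, and that gap was 0.911 of the range of the 4 samples, past the 95% critical value.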

How the results depend on the processing

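The fit was repeated under 15 other settings and, chosen after seeing the data, without controls 3 and 4. No paired analysis was possible because the groups share no replicate numbers. Members past the threshold numbered 0 under all 16. Genes past it numbered 1, but 0 with all 23238 probe sets tested, 0 with an unmoderated test, 0 without controls 3 and 4, 2 with array weights, and 0 to 1 with single samples left out. Members higher at an unadjusted p under 0.05 numbered 6, but 3 with the unmoderated test, 2 without controls 3 and 4, and 2 to 13 with single samples left out. Lower members numbered 2, but 0 with all probe sets tested, 0 with a trended and robust prior, 0 among the 7404 genes left by the filter on the level, 5 with array weights, 6 after quantile normalization, 1 without controls 3 and 4, and 0 to 5 with single samples left out. Of all genes, 2028 were at that p in either direction. There were 1589 with all probe sets tested, 1895 with a trended and robust prior, 1433 after the level filter and 2573 with array weights. There were 1983 after quantile normalization, 1104 with the unmoderated test, 700 without controls 3 and 4, and 569 to 3122 with single samples left out. The median of members was 0.04, but -0.0496 without controls 3 and 4, 0.203 over the 32 members above the median level, and -0.03 to 0.11 with single samples left out. The median of all genes was 0.08, but 0.029 without controls 3 and 4 and 0.160 after the level filter. After quantile normalization it was 0.045, against 0.046 for members, and with centring 0.054, against 0.016 for members. With single samples left out the median of all genes ran from 0.05 to 0.12. Among 42 named members 28 kept 1 sign under every alternative. Without controls 3 and 4 the sign turned for Dclk1 (-0.12), Map1s (-0.0350), Tubb5 (-0.0345), Tubb6 (-0.0563), Kif3b (-0.0891), Kif3c (-0.0582) and Dync1i1 (-0.0156), and for Dclk3 (-0.0167), which is no member. It turned with array weights for Stmnd1 (0.0346), Kif3b (-0.0731) and Kif3c (-0.0218), with quantile normalization for Kif3b (-0.0877) and Kif3c (-0.0520), and with centring for Kif3b (-0.00634), Kif3c (-0.00691) and Dync1i1 (-0.00373). With single samples left out the ranges were -0.0583 to 0.34 for Dclk1, -0.13 to 0.0418 for Map1b, -0.82 to 0.20 for Tubb2a, -0.17 to 0.0482 for Kif5c, -0.19 to 0.00544 for Kif21a, -0.15 to 0.0115 for Kif2c, -0.11 to 0.88 for Stmn2, -0.31 to 0.0248 for Stmnd1, -0.0729 to 0.0713 for Kif3b, -0.0268 to 0.0577 for Kif3c, -0.0340 to 0.0862 for Dync1i1 and -0.0280 to 0.403 for Dclk3. The causes were not tested. Averaging over probe sets and median centring left each of these counts within 1.5 times.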
